A study of Mus musculus with 6 samples.

Results

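RKIP, the Raf kinase inhibitor protein encoded by Pebp1, has been placed at the head of a chain of regulators of metastasis, and 10 genes of that chain were examined here in mouse mammary carcinoma cells with reduced RKIP. The genes were Bach1, Lin28a, Lin28b, Hmga2, the transcription factor genes of epithelial-mesenchymal transition (EMT) Snai1, Snai2, Twist1, Zeb1 and Zeb2, and the chemokine receptor gene Cxcr4. They were chosen by name. Each gene was read from the brightest probe set, by its mean over the 6 arrays, that carried its symbol and no other. By this rule 9 of the 10 genes were measured, each by exactly 1 probe set, among 22180 genes in all. Zeb2 had 2 probe sets, and both also carried the symbol of a second gene, so that no value is given for it.

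168FARN, the cell line used, is derived from a mouse mammary tumor. All cells carried a stably expressed short hairpin from a retroviral vector with puromycin resistance. In 3 samples the hairpin was directed against RKIP (RKIP knockdown) and in 3 samples against firefly luciferase, a gene that the cells do not have (control knockdown). RNA came from independent experiments and each sample was read on 1 array of the type Affymetrix Mouse Gene 2.0 ST. The study labels its array comparison with a single construct against RKIP, and whether each stable line was a clone or a pool was not stated in the sources used here, so that the effects of RKIP loss and of the particular hairpin or line cannot be told apart. All values are log2 intensities after RMA, a procedure that subtracts background, gives all arrays the same distribution and combines the probes of a transcript, and a log2 change is the mean of the RKIP knockdown minus the mean of the control knockdown.

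The chain works through RNA as well as through transcription. RKIP binds RAF kinases and restrains ERK signaling and, through it, MYC. LIN28 proteins block the maturation of let-7 microRNAs, and let-7 lowers the messages of HMGA2, BACH1 and LIN28 itself. HMGA2 is an architectural chromatin protein that can raise the expression of SNAIL. BACH1 is a heme-regulated repressor that has been linked to invasion genes and to CXCR4 in human breast cancer cells. SNAIL, SLUG, TWIST and ZEB factors repress epithelial genes such as E-cadherin, and ZEB factors and the miR-200 family repress one another.

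Because the proposed route from LIN28 to Hmga2 and Bach1 depends on 1 short stretch of the let-7 microRNAs, mature sequences of the family from RefSeq (GRCm38.p6) are shown, with the seed, bases 2 to 8, in capitals. The 6 members listed are those whose primary transcripts are described further down.
let-7a-5p from Mirlet7a-1 (chr13:48538239-48538260, minus strand): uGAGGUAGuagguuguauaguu
let-7c-5p from Mirlet7c-2 (chr15:85706616-85706637, plus strand): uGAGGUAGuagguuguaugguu
let-7e-5p from Mirlet7e (chr17:17830366-17830387, plus strand): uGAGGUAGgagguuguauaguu
let-7f-5p from Mirlet7f-1 (chr13:48537889-48537910, minus strand): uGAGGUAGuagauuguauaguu
let-7g-5p from Mirlet7g (chr9:106178846-106178867, plus strand): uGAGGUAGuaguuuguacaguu
let-7i-5p from Mirlet7i (chr10:122985698-122985719, minus strand): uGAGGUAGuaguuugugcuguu
All 11 let-7 loci found in the table, which encode 9 different mature sequences, carried the seed GAGGUAG. The miR-200 family, which targets the messages of Zeb1 and Zeb2, had 2 seeds, and 1 member of each is shown.
miR-200b-3p (chr4:156055685-156055706, minus strand): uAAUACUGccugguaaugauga
miR-141-3p (chr6:124717917-124717938, minus strand): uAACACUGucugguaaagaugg
The seed AAUACUG was shared by 3 members and the seed AACACUG by 2.

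The arrays themselves were alike in level, with medians over genes of 5.72 to 5.77 and an SD over genes of 0.21 to 0.25 for the log2 difference between any 2 arrays. Pebp1 was at 7.14, 6.91 and 6.60 on RKIP knockdown arrays 1, 2 and 3 and at 7.72, 7.70 and 7.72 on the control arrays. All 3 knockdown arrays lay below the controls, at 67.3%, 57.4% and 46.2% of the control mean, so that the knockdown was partial and uneven. By limma the log2 change was −0.83 with a standard error of 0.13 and an adjusted p of 0.0996, which missed 0.05. The other, dimmer probe set of Pebp1 did not show the difference, with means of 5.91 ± 0.23 under RKIP knockdown and 5.74 ± 0.30 under control knockdown (SD over 3 arrays each). Background was gauged from 1105 olfactory receptor genes, which mammary cells should not use, and the 95th percentile of their means, 5.33, is called the background measure here. Of 5 luminal epithelial markers 4 lay above it. Krt8 was far above it (10.32 and 10.37 in the RKIP and control knockdown). Krt18 (5.79 and 6.14), Krt19 (5.45 and 5.64) and Cdh1 were near it, and Epcam was below it (4.80 and 4.60). Of 9 fibroblast or mesenchymal markers 6 lay above it. Of these Vim (13.38 and 13.47) and Fn1 (13.37 and 13.32) were far above, Col1a2 (6.03 and 6.08) was near it, and Cdh2, Dcn and Lum were below it.

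None of the 9 measured genes passed limma's test at an adjusted p under 0.05 in either direction. Over all genes 45 (0.203%) were higher and 11 (0.0496%) were lower at this threshold. Snai2 and Hmga2 stood farthest apart between the groups, Snai2 with a higher mean and Hmga2 with a lower mean in the RKIP knockdown, and Zeb1 was the third whose groups did not overlap. The median log2 change of the 9 genes was −0.004, with 4 above 0 and 5 below, beside a median of −0.006 over all genes. In 2 of the 9 genes, Snai2 and Zeb1, all RKIP knockdown arrays lay above all control arrays, as they did in 8.67% of all genes, and in 1, Hmga2, all lay below, which again held for 8.67% of all genes. An unadjusted p under 0.05 was reached by the same 3 genes, and by 10.1% of all genes. A looser threshold of 0.1 on the adjusted p, chosen after seeing the data, was met by Snai2 alone, and by 0.442% of all genes.

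**Figure D1:**
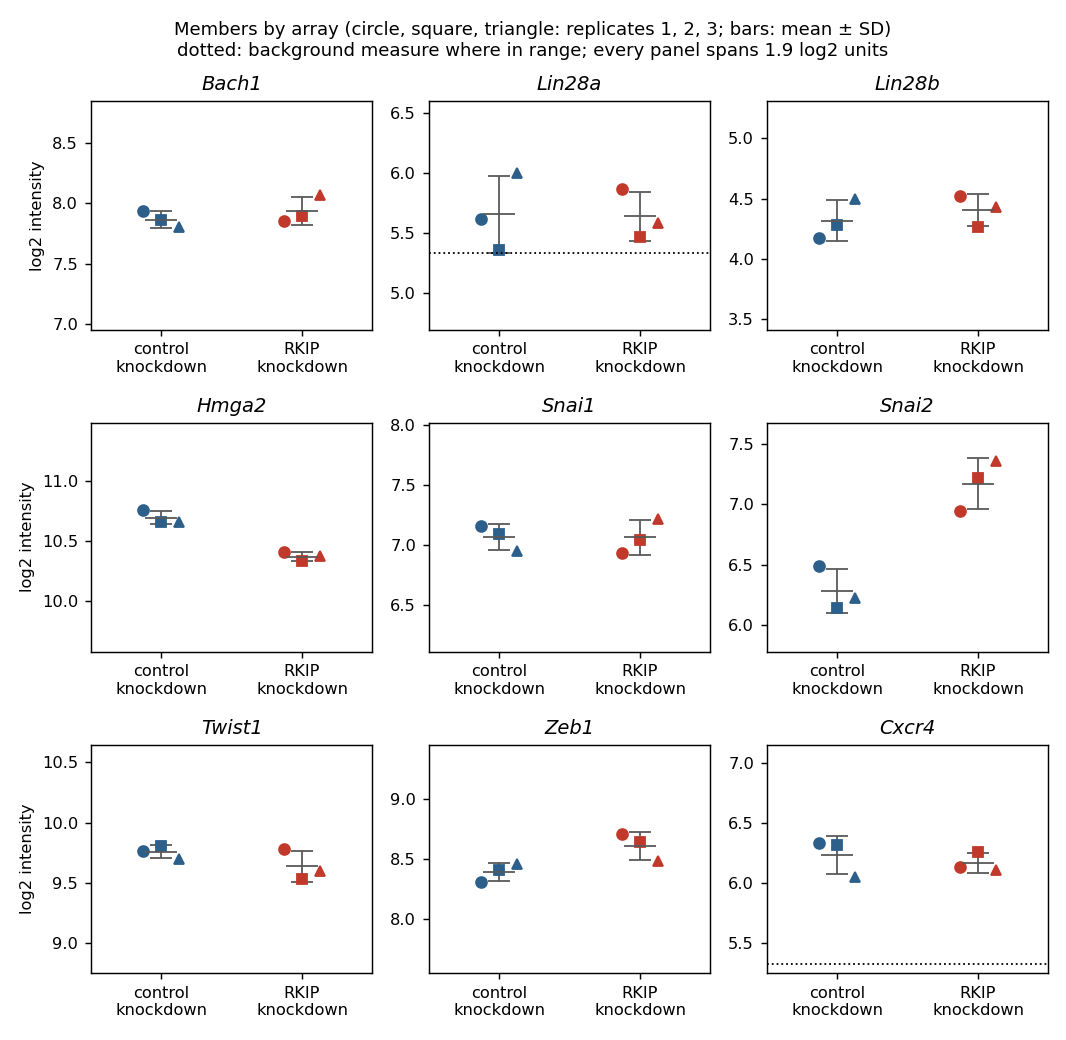
Log2 intensity of each of the 9 measured genes on every array, with 1 point for each of 3 RKIP knockdown (red) and 3 control knockdown (blue) arrays, bars for the mean ± SD and a dotted line at the background measure where it is in range. Snai2 lay at 6.95 to 7.36 in the RKIP knockdown and 6.14 to 6.49 in the control, Hmga2 at 10.33 to 10.41 and 10.66 to 10.76, and 6 of the 9 genes overlapped between the groups.

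Bach1 encodes the repressor that gives the chain its lower end. Its log2 values were 7.85, 7.90 and 8.07 on the RKIP knockdown arrays and 7.94, 7.86 and 7.80 on the control arrays. The third RKIP knockdown array was the highest of all 6, and the remaining values of the groups were interleaved. The means of 7.94 ± 0.11 and 7.87 ± 0.07 (SD, n = 3 arrays each) differed by 0.07 on the log2 scale (adjusted p = 0.803 from limma, standard error 0.08). The 95% interval of the fold change ran from 0.922 to 1.197, so that these arrays bound a change of Bach1 message in either direction but do not show that there was none.

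Both LIN28 genes were read close to background or below it. Lin28a was at 5.87, 5.47 and 5.58 in the RKIP knockdown and 5.61, 5.36 and 5.996 in the control. The control arrays spanned the whole range of the knockdown arrays, and the log2 change was −0.02 (95% interval −0.43 to 0.40, adjusted p = 0.982 from limma). Lin28b read 4.52, 4.27 and 4.43 in the RKIP knockdown and 4.17, 4.28 and 4.50 in the control. All 6 of these values lay below the background measure of 5.33, and the log2 change of 0.09 (adjusted p = 0.822) therefore says little about Lin28b message. Taking the 99th instead of the 95th percentile of the olfactory receptor genes, 6.29, put Lin28a and Cxcr4 below background as well, and left 6 of the 9 genes above it.

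Lin28 genes are known targets of MYC. The promoter table of RefSeq (GRCm38.p6) held windows of 300 bases for 8 of the 10 genes, 11 windows in all, and none for Snai2 and Zeb1. Each window ran from 250 before to 50 after the transcript start. Another motif searched, the MAF element core GCTGAGTCA on either strand, was found in 0.454% of 32851 windows and in no window of these genes. The MYC E box CACGTG, which reads the same on both strands, was found in 7.15% of the 32851 windows. Among the 11 windows of these genes it was found in 1, that of Lin28b, at position −49. It is shown, with the motif in capitals, because MYC is the proposed link from ERK signaling to LIN28.
Lin28b promoter (chr10:45470228-45470267, minus strand): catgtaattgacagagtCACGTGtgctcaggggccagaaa

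Hmga2 was read far above background on every array. It was at 10.41, 10.33 and 10.37 in the RKIP knockdown and 10.76, 10.66 and 10.66 in the control. Every RKIP knockdown array was below every control array, by at least 0.25 on the log2 scale. The means were 10.37 ± 0.04 and 10.69 ± 0.06 (SD, n = 3 arrays each), which left Hmga2 at 80.0% of the control level. The log2 change of −0.32 (standard error 0.06, 95% interval −0.47 to −0.18) had an unadjusted p of 0.0013 and an adjusted p of 0.149 from limma, and lay at the 1.60th percentile of the changes of all genes. A two-sided exact permutation test gave p = 0.1, the smallest that 3 arrays against 3 allow. When the variance was fitted with a trend on signal and robustly, Hmga2 passed the test (adjusted p = 0.000451), with 213 lower genes in place of 11 over all genes. It missed 0.05 without the third of genes with the lowest signal (0.0509), with analysis of variance (0.174), with the replicate block (0.33) and without any 1 array (0.291 to 0.419).

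The SNAIL pair is described together. Snai1, which encodes SNAIL, was at 6.93, 7.04 and 7.22 in the RKIP knockdown and 7.16, 7.10 and 6.95 in the control. The groups covered nearly the same range, and the log2 change was −0.004 (95% interval −0.23 to 0.22, adjusted p = 0.993 from limma). Snai2, which encodes SLUG, was at 6.95, 7.22 and 7.36 in the RKIP knockdown and 6.49, 6.14 and 6.22 in the control. Every RKIP knockdown array lay above every control array, by at least 0.46 on the log2 scale. The means of 7.17 ± 0.21 and 6.28 ± 0.18 (SD, n = 3 arrays each) differed 1.85-fold, with a 95% interval of 1.49 to 2.31. The log2 change of 0.89 (standard error 0.13) was at the 99.9th percentile of all genes and had an unadjusted p of 0.00031 and an adjusted p of 0.0845 from limma. The two-sided exact permutation test again gave its smallest possible value, p = 0.1.

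The study's methods called genes by analysis of variance, and at their limits (1.5-fold or more, with p under 0.01 before adjustment) Snai2 was the 1 gene of the 9 that passed, beside 0.329% of all genes. After adjustment over all genes the analysis of variance gave an adjusted p of 0.248 for Snai2. The call on Snai2 depended on how the test was set up. It passed at 0.05 when the third of genes with the lowest signal was left out (adjusted p = 0.0302) or when the variance was fitted with a trend and robustly (0.000572). It missed 0.1 with the replicate number as a block (adjusted p = 0.312) and when any 1 array was left out (0.117 to 0.279), at log2 changes of 0.80 to 1.003.

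The log2 change of Snai2 exceeded that of Snai1 by 0.89. A two-sided exact permutation test of the within-array difference of the genes gave p = 0.1, the smallest possible. Because Snai1 itself changed by −0.004, this comparison nearly repeats that of Snai2 alone and is no separate evidence. SNAIL and SLUG both bind the E2 box CACCTG, and SNAIL is known to act on its own promoter. Snai2 and Zeb1 had no window to search. The E2 box was read as CACCTG or its reverse complement CAGGTG. It was found in 20.2% of all windows and in 1 of the 11 windows of these genes, that of Snai1, at position −126. It is printed in capitals within 40 bases, next to the values of the gene in which it lies.
Snai1 promoter (chr2:167538052-167538091, plus strand): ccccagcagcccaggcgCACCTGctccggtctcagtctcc

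Twist1 encodes a basic helix-loop-helix factor and Zeb1 a zinc finger repressor of the E-cadherin gene. Twist1 was at 9.78, 9.53 and 9.60 in the RKIP knockdown and 9.77, 9.81 and 9.70 in the control. Of the RKIP knockdown arrays 2 lay below all control arrays and 1 lay among them, with a log2 change of −0.12 (adjusted p = 0.657 from limma, standard error 0.08). Zeb1 was at 8.71, 8.64 and 8.48 in the RKIP knockdown and 8.31, 8.41 and 8.46 in the control. The groups did not overlap, but the lowest RKIP knockdown array and the highest control array were only 0.025 apart. The log2 change of Zeb1 was 0.22 (standard error 0.08, 95% interval 0.03 to 0.41), a 1.16-fold difference, with an unadjusted p of 0.031 and an adjusted p of 0.442.

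Cxcr4, the receptor of the chemokine CXCL12, was at 6.13, 6.26 and 6.11 in the RKIP knockdown and 6.33, 6.32 and 6.05 in the control. The lowest value of all 6 arrays was a control, and the log2 change was −0.07 (95% interval −0.29 to 0.16, adjusted p = 0.856 from limma). Among 6 measured ligands, decoys and signaling partners of the receptor none passed the test in either direction. The ligand gene Cxcl12 itself had a log2 change of 0.08, and the inhibitory G protein genes Gnai2 and Gnai3 had 0.00 and 0.05.

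**Figure D2:**
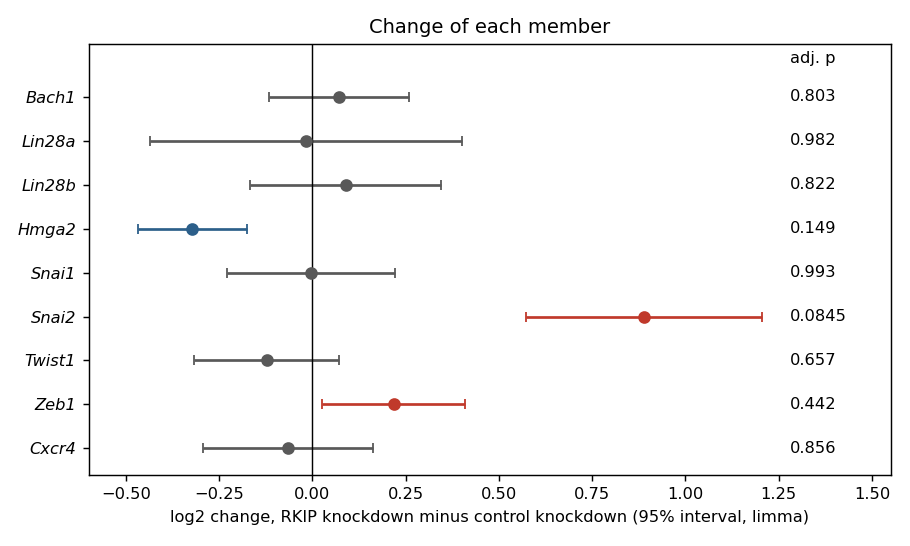
Log2 change of each measured gene, RKIP knockdown minus control knockdown, with bars for the 95% interval and the adjusted p from limma at the right, in color where the arrays of the groups did not overlap. The interval of Snai2 ran from 0.57 to 1.21, that of Hmga2 from −0.47 to −0.18 and that of Zeb1 from 0.03 to 0.41, and the other 6 intervals included 0.

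The RKIP knockdown arrays differed in how much Pebp1 they had left, and the genes were set beside this order after their values were seen. Snai2, Bach1 and Snai1 were each highest on the array with the least Pebp1 (46.2% of control) and lowest on the array with the most (67.3%). That is 3 of 9 genes, beside 20.6% of all genes whose value rose as Pebp1 fell over the 3 arrays. Zeb1 followed the opposite order, with 8.71 on the array with the most Pebp1 and 8.48 on the array with the least. Over 3 arrays such an order is a description and was not tested.

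**Figure D3:**
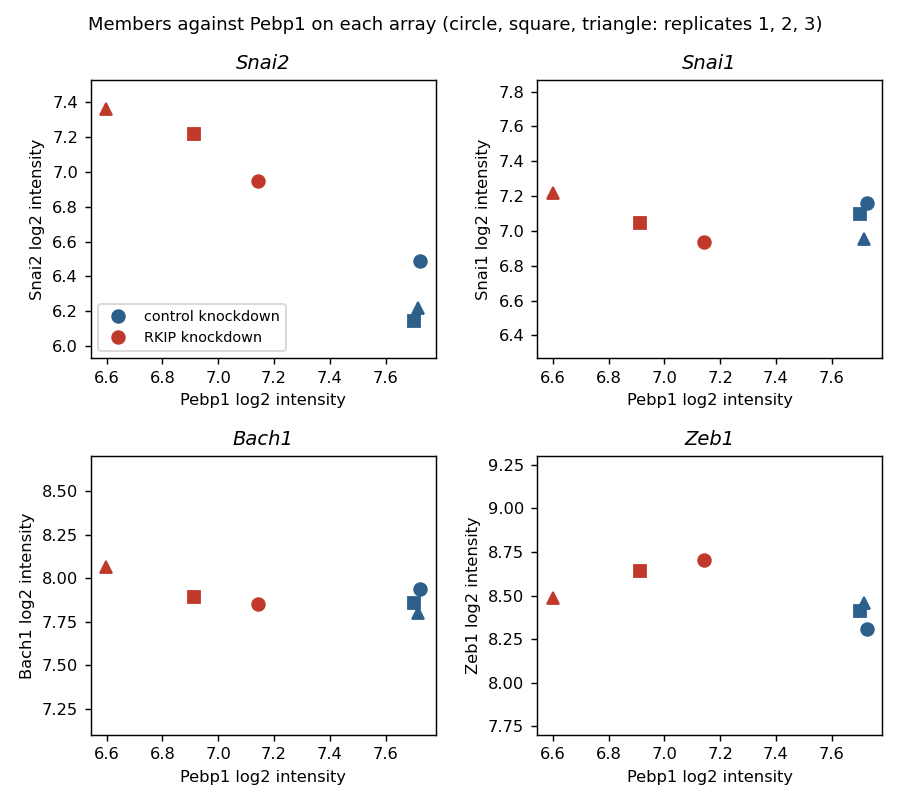
Log2 intensity of Snai2, Snai1, Bach1 and Zeb1 against the log2 intensity of Pebp1 on the 3 RKIP knockdown and 3 control knockdown arrays. On the RKIP knockdown arrays Snai2 read 6.95, 7.22 and 7.36 where Pebp1 read 7.14, 6.91 and 6.60, and Zeb1 read 8.71, 8.64 and 8.48.

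The genes around these 9 were described with 11 lists that hold 131 measured genes, each counted once. Of these, 1 was higher and none was lower at an adjusted p under 0.05, and the median log2 change was −0.02. The gene that rose was Acta2. An unadjusted p under 0.05 was reached by 17 of the 131, where 10.1% of all genes reached it. The groups did not overlap in 35 of the 131, with the RKIP knockdown above in 15 and below in 20. Over all genes each direction held 8.67%. Pebp1, the target of the hairpin, is 1 of the 131 and counts among the 17 and the 20.

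**Figure D4:**
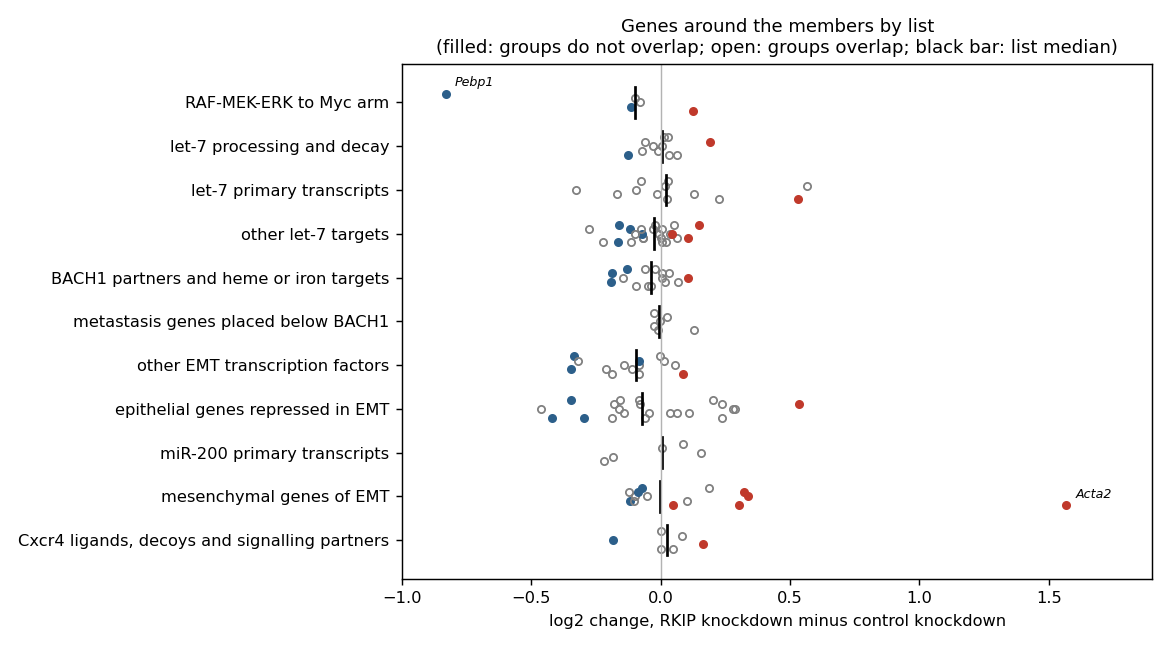
Log2 change of every measured gene in the 11 lists, with filled points where the 3 RKIP knockdown and 3 control arrays did not overlap (red where the RKIP knockdown was higher, blue where it was lower), open points where they did, and a black bar at the median of each list. The list medians lay between −0.10 and 0.03, and Acta2 at 1.57 was the farthest from 0.

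Upstream, in the arm from RAF to MYC, 5 of 8 listed genes were measured, Pebp1 itself among them, and none passed the test. The kinase genes Braf, Map2k1 and Map2k2 had log2 changes of 0.13, −0.11 and −0.08. Myc, which activates LIN28 transcription, was at 9.83 in the RKIP knockdown and 9.93 in the control, with a log2 change of −0.10 (adjusted p = 0.661 from limma).

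None of 11 measured genes of let-7 processing and decay passed. Ago2, the slicing Argonaute, had a log2 change of −0.01, the nuclear RNase gene Drosha 0.01, and the export receptor gene Xpo5 0.03. Khsrp, whose protein promotes let-7 maturation, had −0.13 (adjusted p = 0.546) and lay below the controls on every RKIP knockdown array. Tut4, the uridylyl transferase that LIN28A recruits to let-7 precursors, read 9.17 and 8.98 with groups that did not overlap (log2 change 0.19, adjusted p = 0.447) and is named after its values were seen. These were the 1 gene above and the 1 below of the 11, beside 8.67% of all genes in each direction.

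Probe sets for let-7 primary transcripts read the precursor and its surroundings, not the mature microRNAs shown at the start. Of 12 measured, 6 lay above the background measure and none passed the test. Mirlet7c-2 had a log2 change of 0.02, Mirlet7e −0.10, Mirlet7i −0.01 and Mirlet7a-1 −0.17. Mirlet7f-1 (0.57, adjusted p = 0.422) and Mirlet7g (0.53, adjusted p = 0.456), named after their values were seen, had the largest changes of the list, but both lay below background on all 6 arrays. The seed that these members share was therefore not followed here at the level of mature let-7.

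Other known or proposed let-7 targets gave a view of the same regulation apart from Hmga2 and Bach1. Of 24 measured, none passed in either direction, with a median log2 change of −0.03 and 10 above 0 against 14 below. The cyclin genes Ccnd1 and Ccnd2 had log2 changes of −0.12 and −0.02, the matrix glycoprotein gene Thbs1 0.04 and the kinase gene Map4k4 0.06. All RKIP knockdown arrays lay above the controls in 3 of the 24, Thbs1 among them, and below in 4, Ccnd1 among them. Over all genes each direction held 8.67%. Nras, also 1 of the 4 below and named after its values were seen, read 9.38 in the RKIP knockdown and 9.54 in the control (log2 change −0.16, adjusted p = 0.421).

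Below BACH1, none of 15 measured partners and targets in heme and iron handling passed the test. Hmox1, heme oxygenase and the classical gene that BACH1 represses, is named outside the rule for list genes and was at 8.30 ± 0.06 and 8.30 ± 0.10 (SD, n = 3 arrays each). The ferritin heavy chain gene Fth1 had a log2 change of −0.04, the thioredoxin reductase gene Txnrd1 −0.06, Nfe2l2, which encodes the activator NRF2, −0.13, and the autophagy receptor gene Sqstm1 −0.19 (adjusted p = 0.382). Of 6 measured genes of invasion and glycolysis that have been placed under BACH1, 3 were above background and none passed. Gapdh had a log2 change of −0.01, the hexokinase gene Hk2 −0.03 and the lactate transporter gene Slc16a1 0.13. The collagenase gene Mmp13 was below background in both groups.

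Among 14 other genes listed with the transcription factors of EMT, none passed, 3 had a log2 change above 0 and 11 below, and the median was −0.10. The 11 include inhibitors of such factors, Id2 and, named after their values were seen, Id1 and Id3 (−0.08 each). All RKIP knockdown arrays lay above the controls in 1 gene, Foxc1, and below in 3, Tcf3, Id1 and Id2. Over all genes each direction held 8.67%. Tcf3, the E-protein partner of TWIST, was at 9.45 in the RKIP knockdown and 9.80 in the control, with no overlap (log2 change −0.34 with a standard error of 0.09, and adjusted p = 0.278 from limma). Id2, an inhibitor of E proteins that is named after its values were seen, was likewise below the controls on every RKIP knockdown array (−0.34, standard error 0.07, adjusted p = 0.153). Tcf4, Foxc1 and Prrx1 had log2 changes of 0.06, 0.09 and −0.14.

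Of 22 epithelial genes that EMT factors are known to repress, 13 were above background and none passed in either direction. The log2 change was above 0 in 9 and below 0 in 13, with a median of −0.07. All RKIP knockdown arrays lay above the controls in 1 and below in 3, beside 8.67% of all genes in each direction. The 1 above, Elf3, is named after its values were seen (log2 change 0.53, adjusted p = 0.41 from limma). Its change was the largest of the list, but it lay below background on every array. Krt8, a luminal keratin, had a log2 change of −0.05 and Crb3, a polarity protein gene, −0.06. Krt18, which pairs with Krt8 in keratin filaments, was near background and lower on every RKIP knockdown array (log2 change −0.35, adjusted p = 0.38), and the claudin gene Cldn3 had −0.46 (adjusted p = 0.532) with overlapping groups. Cdh1, the E-cadherin gene, read 5.55 ± 0.34 and 5.32 ± 0.16 (SD, n = 3 arrays each), close to background in both groups. All 5 measured primary transcripts of the miR-200 family and Mir205 lay below background, so that the arm between miR-200 and Zeb1 was not readable on these arrays.

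On the mesenchymal side 1 of 14 measured genes rose and none fell. Acta2, smooth muscle actin, was at 9.86, 10.02 and 10.03 in the RKIP knockdown and 8.64, 8.24 and 8.32 in the control, a 2.96-fold rise (log2 change 1.57 with a standard error of 0.12, and adjusted p = 0.0173 from limma). Without any 1 array its adjusted p was 0.028 to 0.111, and it passed only without control replicate 1. The median of the list was −0.002, and of its other members Vim, Fn1, Axl and S100a4 had log2 changes of −0.09, 0.05, −0.12 and −0.07. On all RKIP knockdown arrays 5 of the 14 genes lay above the controls and 3 below, beside 8.67% of all genes in each direction. The 3 below were Vim, Axl and S100a4, and Fn1 and Acta2 were among the 5 above. Mmp14, a membrane-bound collagenase gene (0.34, adjusted p = 0.117), Pdgfrb, a receptor of platelet-derived growth factor (0.32, adjusted p = 0.153), and Sdc2, a syndecan gene (0.30, adjusted p = 0.184), were the others of these 5 and are named after their values were seen.

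The values of other cell types are given beside Snai2 and Acta2, which mesenchymal cells express. Of the 9 fibroblast or mesenchymal markers 3 were above and 2 below the controls on all RKIP knockdown arrays, beside 8.67% of all genes in each direction, and their mean level was 8.72 to 8.79 in the RKIP knockdown and 8.64 to 8.70 in the control. Their median log2 change was −0.05, with 4 above 0 and 5 below. Col1a1, a collagen chain, had the largest change of this list (0.69, adjusted p = 0.122 from limma). The mean level of 4 lymphocyte markers was also higher, 5.20 to 5.26 against 4.87 to 4.97, with 2 of the 4 above background. Of these Cd3g passed the test (5.81 and 4.99, log2 change 0.82, adjusted p = 0.0381 from limma). Its control arrays all lay below the background measure, so that it counts as above background only through the RKIP knockdown. Cd79a, a B cell receptor chain, lay above the controls on every RKIP knockdown array (6.01 and 5.63, log2 change 0.38, adjusted p = 0.131). The T cell markers Cd3d and Cd3e were below background, with log2 changes of −0.10 and 0.10, so that the higher mean came from Cd3g and Cd79a. The mean of 6 macrophage markers was 5.32 to 5.47 against 5.38 to 5.44, with 3 of the 6 above background. These 3 differed in direction, with log2 changes of −0.30 for Cd68 (below all controls, adjusted p = 0.444), 0.26 for Csf1r (0.531) and 0.25 for Lyz2 (0.588), and Ptprc, Adgre1 and Itgam were below background. Like Cd68, Ptprc (3.40 and 3.61) and Adgre1 lay below the controls on every RKIP knockdown array. The part of such cells in the Snai2 and Acta2 values was not tested, and in bulk RNA more cells of a type and more message per cell cannot be told apart.

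The genes most like Snai2 were found from the root mean square distance over the 6 arrays after each gene was centred on its own mean. The nearest 3 were Xaf1, a proapoptotic factor induced by interferon (distance 0.113), the monocyte chemokine gene Ccl7 (0.113) and the interleukin 1 receptor gene Il1r1 (0.117). All 3 rose in the RKIP knockdown, by 0.78, 0.98 and 0.84 on the log2 scale (adjusted p = 0.0236, 0.0173 and 0.0236 from limma). They were picked for this likeness on the same arrays, which share the group difference.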

How the data were processed

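Total RNA of 3 RKIP knockdown and 3 control knockdown samples was measured on 1 array each. The authors deposited log2 intensities for 41345 probe sets. Their processing notes name RMA and the oligo package without a version. RMA removes any change shared by most transcripts. Gene symbols came from the platform's table (23521 with 1 symbol, 1820 with several and 16004 with none in that table). Those with several or none were left out, and the brightest was kept for each of 1082 genes with more than 1. No filter on signal was applied.

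Groups were compared with limma 3.58.1 under R 4.3.3 (default eBayes after lmFit, leaving 4 residual degrees of freedom), with Benjamini-Hochberg adjustment over all 22180 genes and a threshold of 0.05, and tested on simulated data. The study's methods used analysis of variance per gene, which was run as an alternative. The genes and lists were chosen with earlier results of these data known. The text names all members, Pebp1, list genes past the threshold, up to 4 of the others with the highest mean per list and the 3 genes nearest to Snai2. Cell type markers, Cdh1 and Hmox1 are named beyond this rule after their values were seen, as are the genes marked so in the text. Other alternatives were a second quantile normalization, a filter that dropped the dimmest 33.3% of genes, averaging of a gene's probe sets, a variance trend with robust fitting, the replicate number as a block and each array left out. No 2 arrays were identical, and the number of arrays limits the precision.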

Additional observations from a re-analysis of the deposited data

How the results depend on the processing

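Of 107 comparisons of a gene's log2 change with an alternative, 99 kept the direction and 3 changed the call. The direction of Lin28a turned after a second quantile normalization (0.0075) and, like that of Snai1, with single arrays left out (−0.17 to 0.15 and −0.081 to 0.062). Both changes lie near 0. Lin28b has no value without the third of genes with the lowest signal.

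Of the 9 genes, 0 were higher and 0 lower. Without the third of genes with the lowest signal 1 was higher (Snai2). With a variance trend and robust fitting 1 was higher (Snai2) and 1 lower (Hmga2). At an adjusted p under 0.1, added after seeing the data, 1 was higher. Over the 6 fits with 1 array left out both counts were 0. The 131 list genes had 1 higher and 0 lower. These counts were 2 and 1 without the lowest signals, 4 and 4 with the trend, 0 and 0 with the block or analysis of variance, 1 and 1 at 0.1, and 0 to 1 and 0 to 0 with arrays left out. The 1 lower list gene at 0.1 was Pebp1, the target of the hairpin. All genes gave 45 and 11. These became 116 and 40, 307 and 213, 0 and 0 with the block, 4 and 3 with analysis of variance, 76 and 22 at 0.1, and 0 to 4 and 0 to 0 with arrays left out. The cause of these shifts was not tested.

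The replicate numbers were not taken as pairs in the main fit. Deviations of same-numbered arrays correlated at −0.006, 0.067 and 0.099, but 4 of 6 arrays correlated best with their own number. These values do not settle whether the numbers mark pairs. With the replicate block the adjusted p was 0.312 for Snai2, 0.33 for Hmga2 and 0.164 for Acta2. Signal over background limits Lin28a, Lin28b, Cxcr4, Cdh1 and the miR-200 transcripts. Members above background numbered 8 at the 95th percentile, 8 at the 90th and 6 at the 99th.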
